A study of Rattus norvegicus with 2 samples.

Results

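The genes described here are 9 markers of resident microglia, namely *Csf1r*, *P2ry12*, *Gpr34*, *Trem2*, *Tyrobp*, *Tmem119*, *Aif1*, *Sall1* and *Olfml3*. They were found by gene symbol in a table of 32662 genes, and all 9 were in it. The table came from retina of female Long-Evans rats aged 2 months, sequenced as rRNA-depleted RNA. The control library (CTRL) was made after a sham procedure, and the injured library (IR12) was made from retina taken 12 hours after the reperfusion that followed an ischemia. Each condition had 1 library, so the differences carry no replicate check and no error between animals, and a difference of at least 2-fold is called here, not tested. As a check of the tissue label, the photoreceptor arrestin gene *Sag* had 2482 FPKM in CTRL and 4703 FPKM in IR12. The question was how the level of each microglial marker differed between the injured and the sham retina.

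Microglia are the resident macrophages of the retina and the brain, where they survey the tissue with fine processes and take up debris. Their survival depends on the receptor CSF1R and its ligands CSF1 and IL34, and their resting state is marked by genes such as *P2ry12*, *Tmem119* and *Sall1*, which blood-derived macrophages mostly lack. *Csf1r*, *Aif1*, *Tyrobp* and *Trem2* are also known from other cells of the myeloid lineage, so they mark microglia less strictly.

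Levels are given as FPKM, a fragment count scaled by transcript length and library size, so that genes of different length share a scale. All 9 markers were listed above 0 in both libraries. *Sall1*, *Trem2* and *Tmem119* were under 1 FPKM in both, so the label of the gene set rested mainly on the other 6. In CTRL the order from the highest level was *Olfml3*, *Aif1*, *Gpr34*, *Csf1r*, *P2ry12*, *Tyrobp*, *Sall1*, *Trem2* and *Tmem119*. In IR12 it was *Tyrobp*, *Aif1*, *Olfml3*, *Csf1r*, *Gpr34*, *P2ry12*, *Sall1*, *Trem2* and *Tmem119*. The last 3 places were thus held by the same genes in both libraries, while *Tyrobp* moved from place 6 to place 1. Whether neighbours in either order differ could not be judged with 1 library each, and by ratio *P2ry12* and *Tyrobp* in CTRL and *Olfml3* and *Csf1r* in IR12 lay closest together.

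**Figure D1:**
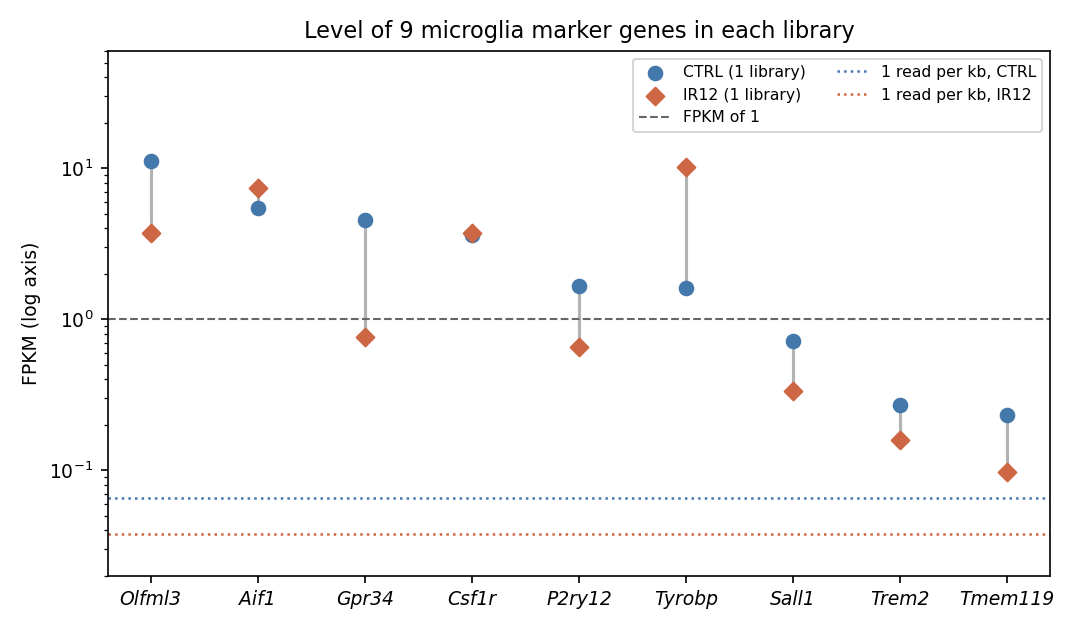
Level of the 9 microglial markers in FPKM (log axis), with a circle for the CTRL library, a diamond for the IR12 library and a grey line joining them; the dashed line is 1 FPKM and the dotted lines are the level of 1 read per kilobase in each library. *Tyrobp* is the marker with the widest gap upward, from 1.62 to 10.2 FPKM, and *Gpr34* the marker with the widest gap downward, from 4.56 to 0.762 FPKM.

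The plot of levels by library shows that the markers did not move as a block. Differences are given as log2 of FPKM plus 1 in IR12 over FPKM plus 1 in CTRL (the log2 ratio), which understates the change of low genes. Of the 9 markers, 6 had at least 1 FPKM in at least 1 library and could be called. Of these 6, 1 was called higher in IR12 (*Tyrobp*), against 6.56% of all 13599 genes that met the same minimum. Another 2 were called lower (*Gpr34* and *Olfml3*), against 6.12% of all genes. *Csf1r*, *Aif1* and *P2ry12* were called neither way. *Gpr34* and *P2ry12* met the minimum through CTRL alone, so counts and medians over the 6 serve as description. Since the RNA came from retinal tissue and not from sorted cells, fewer microglia and less RNA per microglial cell cannot be told apart. Which cells carried each marker was not identified either.

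Over all 9 markers the median log2 ratio was -0.17, and 6 of them were lower and 3 higher in IR12 by any amount. *Sall1*, *Trem2* and *Tmem119*, under 1 FPKM in both libraries, were among those lower. Over all 32662 genes the median was 0.00, with 8926 lower, 10174 higher and 13562 listed at 0 in both libraries. Over the 6 with at least 1 FPKM the median was -0.33, against 0.02 over all 13599 genes. The summed level of the 9 was 29.2 FPKM in CTRL and 26.9 FPKM in IR12. With the libraries set to the same FPKM total over all genes (the TPM scale), the IR12 sum of the markers was 42.2 FPKM, so the near-equal sums do not hold on that scale. The make-up of the sum, which does not depend on the scale, differed. *Olfml3* supplied 38.1% of it in CTRL and 13.8% in IR12. *Tyrobp* supplied 5.54% in CTRL and 37.7% in IR12.

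The libraries differed in how much of the FPKM total went to small non-coding RNAs, with 68.1% in CTRL and 46.4% in IR12, and the scale of the comparison depends on how that is treated. The TPM scale raised IR12 by 0.65 on the log2 scale and moved the median of all genes to 0.61, with 3119 of 14026 called higher and 473 lower in place of 892 and 832 of 13599. On that scale 1 marker was called higher and 1 lower, and the median of the 6 markers was 0.08. Equal totals without the small RNAs shifted IR12 by -0.10, with 1 marker called higher and 2 lower, beside 787 and 939 of 13545 over all genes.

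**Figure D2:**
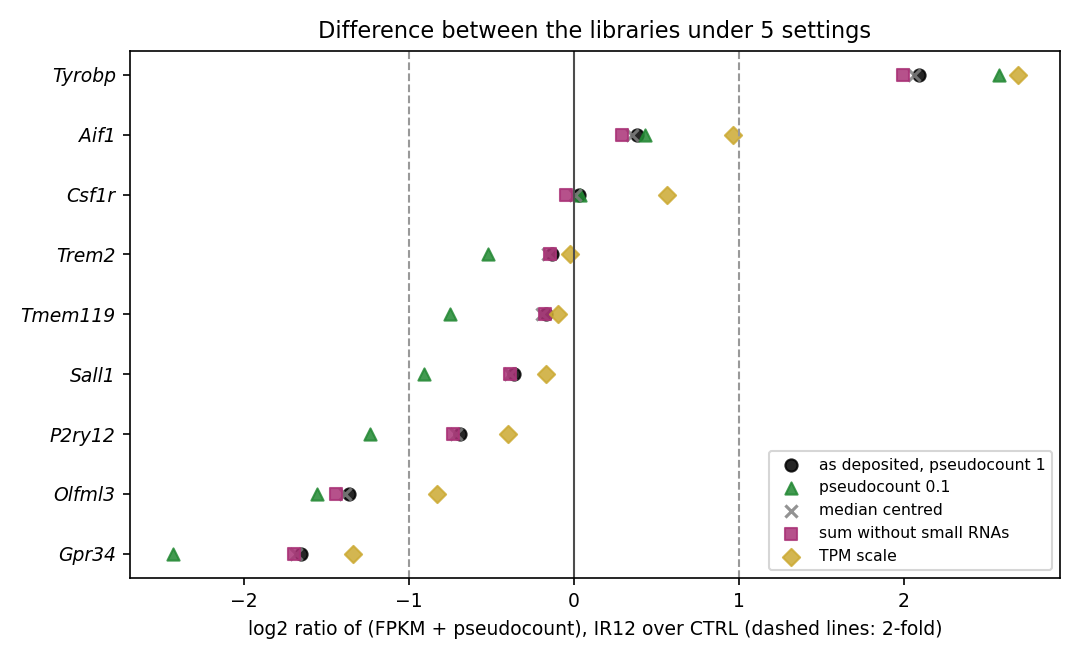
log2 ratio of IR12 over CTRL for each of the 9 markers, with 1 symbol for each of 5 settings: as deposited with a pseudocount of 1 FPKM, a pseudocount of 0.1 FPKM, centred on the median gene, equal sums without small RNAs, and the TPM scale; dashed lines mark 2-fold. *Tyrobp* lies above 2-fold and *Gpr34* below it under all 5, *Olfml3* comes inside the lines on the TPM scale at -0.83, and *P2ry12* goes outside them with the smaller pseudocount at -1.23.

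Promoters are shown for *Csf1r*, whose level was nearly the same in both libraries, and for *Gpr34* and *Olfml3*, which were called lower, so that the letters next to their start sites can be set beside unlike outcomes. RefSeq promoters of 300 bases on the rat build GRCr8, from 250 bases before to 50 after the start site, were matched by symbol for 4 of the 9 markers, *Csf1r*, *Gpr34*, *Olfml3* and *Trem2*. The core letters GAGGAA of the motif of PU.1, the transcription factor of the myeloid lineage encoded by *Spi1*, were searched on both strands and occur in 27.6% of 33469 promoters of that length. The letters TGANTCA of the AP-1 motif occur in 7.33%. Neither motif contains the other. Capitals mark the matches in the sequences, which are written 5′ to 3′ on the strand of the gene and lie at chr18:56834129-56834428 on the plus strand for *Csf1r*, chrX:11785787-11786086 on the minus strand for *Gpr34* and chr2:193935445-193935744 on the minus strand for *Olfml3*.
Csf1r: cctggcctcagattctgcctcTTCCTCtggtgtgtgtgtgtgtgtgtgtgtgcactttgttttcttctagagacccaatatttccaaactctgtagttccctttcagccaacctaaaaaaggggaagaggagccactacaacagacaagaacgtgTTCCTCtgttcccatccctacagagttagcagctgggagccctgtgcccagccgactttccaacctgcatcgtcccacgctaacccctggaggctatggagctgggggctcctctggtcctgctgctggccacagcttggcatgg
Gpr34: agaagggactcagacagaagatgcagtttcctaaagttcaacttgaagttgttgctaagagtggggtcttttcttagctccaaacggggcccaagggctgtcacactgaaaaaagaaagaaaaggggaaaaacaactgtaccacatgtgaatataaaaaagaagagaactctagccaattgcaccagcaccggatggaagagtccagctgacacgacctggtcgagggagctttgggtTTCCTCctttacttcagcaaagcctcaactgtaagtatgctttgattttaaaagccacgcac
Olfml3: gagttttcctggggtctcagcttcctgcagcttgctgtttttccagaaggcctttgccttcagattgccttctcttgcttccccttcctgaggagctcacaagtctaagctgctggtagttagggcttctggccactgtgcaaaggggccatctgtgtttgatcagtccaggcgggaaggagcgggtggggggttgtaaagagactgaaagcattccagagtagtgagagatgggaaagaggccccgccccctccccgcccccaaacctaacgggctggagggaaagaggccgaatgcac
The *Csf1r* window held 2 matches to the PU.1 core, both read on the opposite strand as TTCCTC, beginning 229 and 95 bases before the start site. In *Gpr34* a single match on the opposite strand began 12 bases before the start site. The *Olfml3* window held neither set of letters. The promoter of *Trem2*, not printed because its level was low in both libraries, held a PU.1 core that began 29 bases before its start site. It also held a match to TGANTCA, with the letters TGAATCA, that began 3 bases before the start site and ran across it. These matches describe the letters of the windows, and binding was not measured.

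Among the receptors, *Csf1r* encodes the tyrosine kinase receptor on which microglia depend for survival. Its level was 3.61 FPKM in CTRL and 3.71 FPKM in IR12, a ratio of 1.03. The level of *Csf1r* was therefore nearly equal in both libraries as deposited, with a log2 ratio of 0.03. The small difference turned to -0.05 when the sums without small RNAs were made equal and became 0.56 on the TPM scale, close to the median of all genes there. Among the genes listed above 0, which numbered 17266 in CTRL and 18418 in IR12, *Csf1r* stood at percentile 39.4 in CTRL and 43.9 in IR12. The gene lies at chr18:56414488-56458300 on rn6, the build of the deposited table, which is also used for the positions that follow.

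*Gpr34*, the gene whose printed promoter holds a PU.1 core near the start site, encodes a receptor for lysophosphatidylserine that is abundant in microglia. It had 4.56 FPKM in CTRL and 0.762 FPKM in IR12. CTRL was the high library, by 5.98-fold in FPKM, and the log2 ratio was -1.66. The call was kept on the TPM scale, at -1.34, and the ratio was -2.43 with a pseudocount of 0.1 FPKM. Percentiles among the genes listed above 0 were 42.8 in CTRL and 27.8 in IR12. They need no common scale, but the number of genes listed above 0 differed between the libraries. A lower log2 ratio was found for 2.76% of all genes with at least 1 FPKM. The locus listed for *Gpr34*, chrX:9815652-10156155, is shared with *Cask* and *Gpr82*. *Cask*, which encodes a scaffold kinase of synapses, had 23.8 FPKM in CTRL and 21.2 FPKM in IR12. How reads were divided between overlapping genes is uncertain, since the strand setting of the counting is not given in the sources used here.

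*P2ry12* encodes the ADP receptor that steers microglial processes towards injured cells. Its level was 1.67 FPKM in CTRL and 0.650 FPKM in IR12. CTRL was the higher library, by 2.56-fold in FPKM, but the log2 ratio after adding 1 FPKM was -0.69 and no call was made. With a pseudocount of 0.1 FPKM the ratio was -1.23, past 2-fold, so the call on *P2ry12* turns on the pseudocount. The listed locus, chr2:149213134-149494311, is shared with *Med12l*, which had 15.2 FPKM in CTRL and 5.30 FPKM in IR12. *Med12l*, at a higher level than *P2ry12*, had a log2 ratio of -1.36 as deposited and -0.80 on the TPM scale, and the division of reads between them is uncertain for the reason given for *Gpr34*. Its neighbours *P2ry13* and *P2ry14*, receptors of the same subfamily in the same listed locus, were low in both libraries. *P2ry13* had 0.371 FPKM in CTRL and 0.145 FPKM in IR12. *P2ry14* had 0.425 FPKM in CTRL and 0.290 FPKM in IR12.

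TREM2 is a lipid-sensing receptor of the microglial surface, and TYROBP, also called DAP12, is the adaptor that carries its signal into the cell. *Trem2* had 0.272 FPKM in CTRL and 0.159 FPKM in IR12. These low levels can be read in units of single reads, because the smallest steps between FPKM values gave a level of 0.0649 FPKM for 1 read per kilobase in CTRL and 0.0380 FPKM in IR12, a ratio of 1.708. How much of that ratio is depth and how much is the scaling behind the deposited FPKM was not tested. Reads per kilobase therefore show the density of reads behind a level and are not compared between libraries. *Trem2* then had 4.19 reads per kilobase in CTRL and 4.19 in IR12. The read density was thus low in both. FPKM of *Trem2* was 1.708-fold higher in CTRL, the same ratio as for 1 read per kilobase. How far it was lower in IR12 therefore depends on the scale between the libraries. The number of reads is not known, since transcript lengths were not used, and what difference could be detected was not tested. The locus is chr9:14611561-14618013.

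*Tyrobp* had 1.62 FPKM in CTRL and 10.2 FPKM in IR12. IR12 was the high library, by 6.26-fold in FPKM, and the log2 ratio was 2.09. A lower ratio was found for 98.2% of all genes with at least 1 FPKM, and the call was kept under every scaling tried, with a lowest ratio of 2.00 and a highest of 2.69. *Tyrobp* moved from percentile 29.6 of the genes listed above 0 in CTRL to 58.5 in IR12. Of the adaptor and its receptor, the adaptor gene alone was called. *Trem2* did not reach the minimum of 1 FPKM in either library, so it could not be called. Whether the changes of *Trem2* and *Tyrobp* differ was not tested. *Tyrobp* lies at chr1:88875375-88879303, and the locus of *Hcst*, which encodes the related adaptor DAP10, begins after a gap of 124 bases. *Hcst* was listed at 0 in CTRL and had 0.172 FPKM in IR12.

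*Olfml3* encodes a secreted protein of the olfactomedin family and was the most abundant marker in CTRL. It had 11.1 FPKM in CTRL and 3.71 FPKM in IR12. CTRL was the high library, with IR12 at 0.333 times its level and a log2 ratio of -1.36. On the TPM scale the ratio was -0.83 and the call was lost, although the median of all genes on that scale was 0.61. Its percentile was 58.3 in CTRL and 43.9 in IR12. The locus is chr2:206219419-206222248, and no other listed gene overlapped it.

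*Aif1* encodes IBA1, the calcium-binding protein by which microglia and macrophages are commonly stained. Its level was 5.42 FPKM in CTRL and 7.36 FPKM in IR12. IR12 was the higher library, by 1.36-fold in FPKM, with a log2 ratio of 0.38 and no call. The ratio was 0.96 on the TPM scale, still short of 2-fold. *Aif1* held place 2 among the 9 markers in both libraries. Its locus is chr20:5161333-5166448.

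*Sall1* encodes a transcription factor that keeps microglia in their resting identity. It had 0.714 FPKM in CTRL and 0.334 FPKM in IR12, with 11.0 and 8.80 reads per kilobase. *Tmem119*, a surface protein used to tell microglia from other macrophages, had 0.231 FPKM in CTRL and 0.0967 FPKM in IR12, with 3.56 and 2.55 reads per kilobase. Both genes were lower in IR12, but neither reached the minimum of 1 FPKM and neither was called. The number of reads behind these levels is not known, since transcript lengths were not used, so how well the size of such differences is fixed was not tested. *Sall1* lies at chr19:23389375-23405039 and *Tmem119* at chr12:48598647-48605704.

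Dividing each marker by *Csf1r* of the same library removes the scale between the libraries altogether. *Tyrobp* was 0.449 times the level of *Csf1r* in CTRL and 2.74 times in IR12. *Aif1* gained on *Csf1r* less, by 1.32-fold. These were the only markers to gain on *Csf1r*. *Olfml3* was 3.09 times the level of *Csf1r* in CTRL and was level with it in IR12. *Gpr34* was 1.26 times that level in CTRL and 0.206 times in IR12. *P2ry12* was 0.462 times that level in CTRL and 0.175 times in IR12. The remaining 3, *Sall1*, *Trem2* and *Tmem119*, were also lower relative to *Csf1r* in IR12, at 0.456, 0.570 and 0.407 times their CTRL value. These 3 were under 1 FPKM with low read density in both libraries, and how well such ratios are fixed was not tested.

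**Figure D3:**
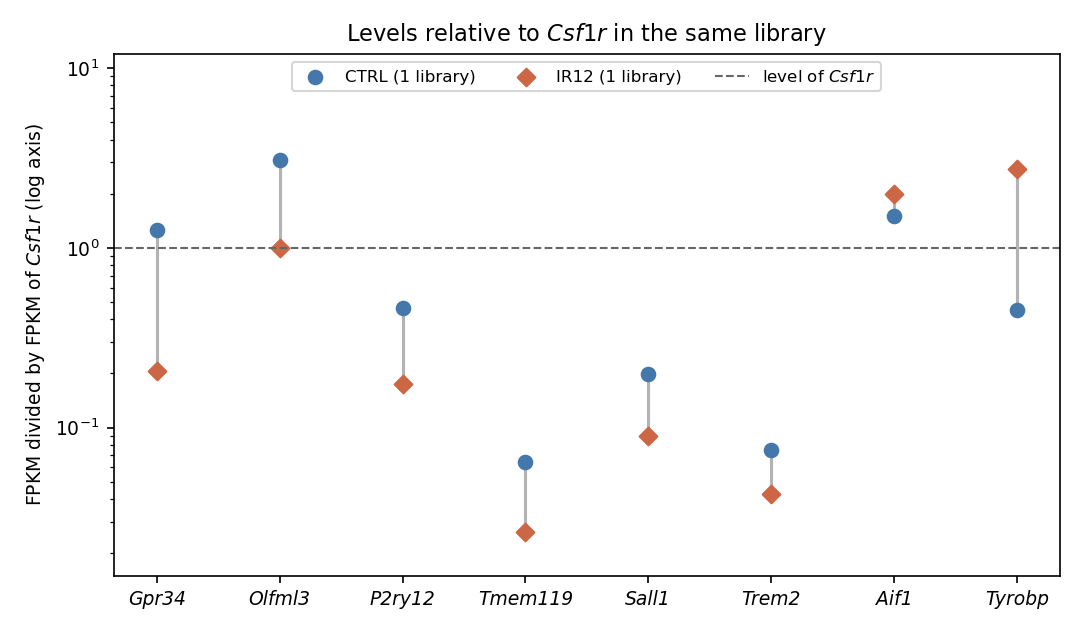
Level of 8 markers divided by the level of *Csf1r* in the same library (ratio of FPKM, log axis), with a circle for CTRL, a diamond for IR12 and a grey line joining them; the dashed line is the level of *Csf1r*. *Tyrobp* crosses the line upward, from 0.449 to 2.74, and *Gpr34* crosses it downward, from 1.26 to 0.206.

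The counts of the gene lists that follow stand beside these shares of all genes. As deposited, 6.56% were called higher and 6.12% lower. On the TPM scale, 22.2% were called higher and 3.37% lower. With equal sums without small RNAs, 5.81% were called higher and 6.93% lower. After centring on the median gene, 6.33% were called higher and 6.37% lower. A gene that met the minimum only in the library where it is high had to differ, so list counts and medians are descriptions.

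Of the ligands and signalling partners of CSF1R, 7 genes were measured and 6 had at least 1 FPKM, with 1 called higher and 0 lower, and on the TPM scale 3 of 7 called higher and 0 lower. The gene called higher was the ligand gene *Csf1*, with 1.99 FPKM in CTRL and 7.47 FPKM in IR12. The other ligand gene, *Il34*, had 1.34 FPKM in CTRL and 1.13 FPKM in IR12. The ligand gene *Csf1* was thus called higher and the receptor gene *Csf1r* was not.

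Of 12 measured ligands and partners of TREM2 and TYROBP, 5 had at least 1 FPKM, with 2 called higher and 1 lower. The counts were 4 higher and 0 lower of 9 on the TPM scale, and 1 higher and 1 lower of 4 with equal sums without small RNAs. *Clu*, which encodes the apolipoprotein clusterin, had 223 FPKM in CTRL and 673 FPKM in IR12. *Apoe*, another lipoprotein ligand of TREM2, had 65.5 FPKM in CTRL and 26.1 FPKM in IR12, and its call was lost on the TPM scale at -0.66. Neither apolipoprotein gene is particular to microglia, and both are known from glia of the retina. *Trem1*, a receptor of neutrophils and monocytes that also signals through TYROBP, was listed at 0 in CTRL and had 1.06 FPKM in IR12, just above the minimum, and fell short of 2-fold at 0.99 with equal sums without small RNAs. *Syk*, the kinase downstream of TYROBP, had 0.343 FPKM in CTRL and 0.349 FPKM in IR12.

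Extracellular nucleotides are sensed by P2RY12 and its relatives. Of 10 enzymes and receptors for them, 5 had at least 1 FPKM, with 0 called higher and 1 lower. That gene was the ADP receptor *P2ry1*, with 5.73 FPKM in CTRL and 2.28 FPKM in IR12, and the call was lost on the TPM scale at -0.56, where the list had 1 gene called higher and 0 lower. Of 10 myeloid transcription factors, 4 had at least 1 FPKM, with 0 called higher and 1 lower. *Maf*, which met the minimum through CTRL alone, was the gene called lower, with 2.90 FPKM in CTRL and 0.654 FPKM in IR12, and its call was lost on the TPM scale at -0.95, where the list had 2 genes called higher and 0 lower. *Spi1*, the gene of PU.1, was listed at 0 in CTRL but had 0.407 FPKM in IR12.

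A list of 20 other genes of resting microglia, of which 19 were measured and 13 had at least 1 FPKM, held 0 genes called higher and 0 called lower. Its median log2 ratio was -0.11 over the 13, and 0.00 over the 19, of which 8 were higher in IR12, 9 lower and 2 listed at 0 in both. On the TPM scale 3 of 14 genes were called higher. *Cx3cr1*, the fractalkine receptor, had 1.16 FPKM in CTRL and 0.676 FPKM in IR12. The complement genes of the list went both ways. *C1qa* had 2.61 FPKM in CTRL and 2.34 FPKM in IR12. *C1qb* had 1.77 FPKM in CTRL and 3.06 FPKM in IR12. *C1qc* had 1.17 FPKM in CTRL and 1.41 FPKM in IR12. The summed level, 818 FPKM in CTRL and 625 FPKM in IR12, was set mostly by *Cst3*, which many retinal cells express, with 619.6 FPKM in CTRL and 398 FPKM in IR12.

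Other leukocyte genes were examined beside *Tyrobp*. Of 17 genes shared by leukocytes and phagocytes, all 17 had at least 1 FPKM in at least 1 library, with 11 called higher, 0 lower and the other 6 neither way. Of the 17, 10 met the minimum through IR12 alone, and on the TPM scale 15 of 17 were called higher and 0 lower. Their median log2 ratio was 1.33, and their summed level was 19.7 FPKM in CTRL and 92.3 FPKM in IR12. The most abundant in IR12 was the Fc receptor gene *Fcgr2b*, with 1.16 FPKM in CTRL and 18.0 FPKM in IR12, and in CTRL it was *Lcp1*, with 3.81 FPKM there and 11.1 FPKM in IR12. *Fcer1g*, an adaptor of the same kind as TYROBP, had 2.42 FPKM in CTRL and 12.7 FPKM in IR12, a ratio of 5.23 beside 6.26 for *Tyrobp*. *Ptprc*, which encodes CD45, had 0.408 FPKM in CTRL and 2.98 FPKM in IR12.

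Markers of infiltrating neutrophils and monocytes were examined in the same way. Of 17 measured, 11 had at least 1 FPKM, with 9 called higher and 0 lower, and 8 of the 11 met the minimum through IR12 alone. On the TPM scale 11 of 13 were called higher and 0 lower. Their summed level was 33.8 FPKM in CTRL and 164 FPKM in IR12. The most abundant in IR12 was *Lyz2*, with 9.73 FPKM in CTRL and 76.9 FPKM in IR12, and in CTRL it was *Vcan*, with 15.0 FPKM there and 9.25 FPKM in IR12. *S100a8*, a calcium-binding protein gene of neutrophils, reached 12.8 FPKM in IR12 from a listed 0 in CTRL. *Ccr2*, the chemokine receptor of monocytes, was listed at 0 in CTRL and had 0.854 FPKM in IR12, and *Mpo* and *Elane*, genes of neutrophil granules, were listed at 0 in both. A listed 0 does not show silence in this table, since all 37 mitochondrial genes were also listed at 0 in both libraries. The part of these cells in the higher level of *Tyrobp* was not tested.

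Genes known from disease-associated microglia, a state that depends on TREM2 in other tissues, formed a list of 17, with 16 at 1 FPKM or more. Of these 16, 11 were called higher and 1 lower, and 5 met the minimum through IR12 alone. On the TPM scale 12 were called higher and 0 lower, and with equal sums without small RNAs 10 of 15 were called higher and 1 lower. The summed level was 423 FPKM in CTRL and 1163 FPKM in IR12. *Cd63*, which many cell types express, was the most abundant in IR12, with 64.9 FPKM in CTRL and 573 FPKM in IR12. In CTRL the most abundant was *Ctsb*, with 183 FPKM there and 230.2 FPKM in IR12. *Axl* had 1.26 FPKM in CTRL and 31.6 FPKM in IR12. *Clec7a*, a lectin of myeloid cells, had 0.122 FPKM in CTRL and 3.02 FPKM in IR12. The gene called lower was *Lpl*, with 14.3 FPKM in CTRL and 5.13 FPKM in IR12, a call that was lost on the TPM scale at -0.76. The cells that carried these genes were not identified, and their part in the levels of the 9 markers was not tested.

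Markers of border macrophages and of lymphocytes were low in both libraries. Of 8 border macrophage genes, 0 reached 1 FPKM in either library, and their summed level was 0.909 FPKM in CTRL and 1.06 FPKM in IR12. By any amount 2 of the 8 were higher in IR12 and 6 lower, with a median log2 ratio of -0.07. *Pf4*, the most abundant of them in IR12 and 1 of the 2 that were higher, had 0.645 FPKM in IR12 and was listed at 0 in CTRL. Among the 6 that were lower, *F13a1* had 0.214 FPKM in CTRL and 0.0209 FPKM in IR12. On the TPM scale 1 gene of this list was called higher. Of 8 lymphocyte genes, 1 had at least 1 FPKM, namely *Cd4*, with 1.09 FPKM in CTRL and 1.08 FPKM in IR12. The B cell gene *Cd79a* was listed at 0 in both.

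**Figure D4:**
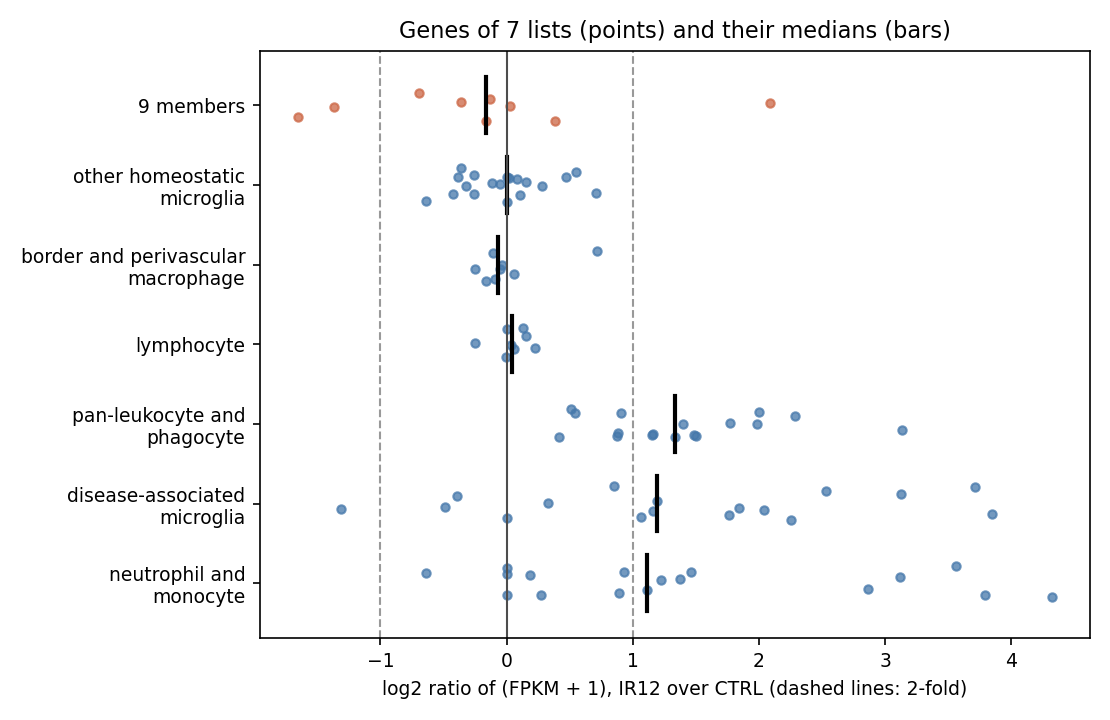
log2 ratio of FPKM plus 1, IR12 over CTRL, for the genes of 7 lists (points, spread vertically for view) with the median of each list (black bar); dashed lines mark 2-fold. The 9 markers spread from -1.66 to 2.09 around a median of -0.17, while the leukocyte and phagocyte list has a median of 1.33 and the list of other resting microglia genes a median of 0.00.

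In the plot of the 7 lists the markers of resident microglia are spread wide, with *Tyrobp* among the values of the leukocyte lists and *Gpr34* and *Olfml3* below the lowest gene of the other resting microglia list. *P2ry12*, at -0.69, lies close to *Cst3* of that list, at -0.64, and their order is reversed with equal sums without small RNAs. On the TPM scale they lie further apart, with *P2ry12* at -0.40 and *Cst3* at 0.01. Without the added 1 FPKM, IR12 over CTRL was 0.390 for *P2ry12* and 0.643 for *Cst3*.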

How the data were processed

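Retinal RNA (350 ng) of a sham-treated and an injured sample was made into rRNA-depleted stranded libraries, 1 per condition. The labels do not say whether a library holds 1 retina or a pool. Reads were shortened to their first 100 bases. The values are FPKM per gene as deposited, for 32662 genes, and the submitters' processing notes name STAR 2.5.2b, Cuffdiff 2.2.0 and the build rn6. The strand setting of the counting is not given in the sources used here. The table counts start positions from 0, so 1 was added to each. Of the genes, 13562 were listed at 0 in both libraries. FPKM summed to 1402320 in CTRL and 895200 in IR12, and 12958 and 12884 genes had at least 1 FPKM.

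The value computed was log2 of (FPKM + 1) in IR12 over (FPKM + 1) in CTRL. A gene with at least 1 FPKM in at least 1 library was called when it differed by at least 2-fold. No test was made and no interval is given, since 1 library per condition allows none. Alternatives were a pseudocount of 0.1 FPKM, centring on the median gene, equal FPKM sums (TPM scale), equal sums without 4422 small RNA genes recognised by symbol, a 1.5-fold threshold, no minimum and a minimum of 5 FPKM.

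The FPKM worth of a read came from the lowest FPKM value that genes of equal locus length shared, taken as 1 read. Of 25 lengths compared, 17 gave the same CTRL to IR12 ratio. Reads per kilobase refer to the effective length used for FPKM, and transcript lengths were not used.

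The members and gene lists were chosen with earlier results of these data known. The text names all 9 members and, from the lists, genes past 2-fold, the most abundant gene, defining markers at or near 0, and reference genes. *Cx3cr1*, *C1qa*, *C1qb*, *C1qc*, *Vim*, *Il34*, *Syk*, *Hcst*, *Hbb* and the genes overlapping members were named after their values were seen. Of 173 list symbols, 167 were in the table, and 2 had 2 entries, of which the entry with the higher FPKM was used. The values of 1 listed gene are not reported here. Promoters came from RefSeq (GRCr8). Python 3.11.15, numpy 2.4.6, pandas 2.3.3 and matplotlib 3.10.9 were used, and the calculation was tested on simulated data.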

Additional observations from a re-analysis of the deposited data

How the results depend on the processing

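Of 55 values recomputed under the alternatives, 50 stayed within 1.5-fold of the reported value, 5 moved further, and 0 called ratios changed sign. The number of markers called higher was 1 under every alternative. The number called lower was 2, and became 1 on the TPM scale, where *Olfml3* was no longer called, and 1 with a minimum of 5 FPKM, which leaves 3 markers and drops the low genes. That minimum also moved the median log2 ratio from -0.33 to 0.38. On the TPM scale the median was 0.08, a change of sign. The number called lower was 3 with a pseudocount of 0.1 FPKM and 3 at a threshold of 1.5-fold, with *P2ry12* added. The share of all genes called is not given here for that pseudocount, that threshold, no minimum or the minimum of 5 FPKM. The marker counts at those settings therefore serve as description and are not read as particular to the markers. Of 36 values for single markers, 34 stayed within 1.5-fold, of which 1 changed sign (*Csf1r*, -0.05 with equal sums without small RNAs), and the 2 that moved further were *Gpr34* (-2.43 with a pseudocount of 0.1 FPKM) and *Tyrobp* (2.69 on the TPM scale). Over all genes, 892 were called higher and 832 lower as deposited, and 3119 and 473 on the TPM scale. No paired analysis was possible because each condition has 1 library, and no replicate could be left out. Low read density limits *Trem2*, *Tmem119* and *Sall1* most, with at most 11.0 reads per kilobase in either library.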

Other observations

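Markers of other retinal cells are given here as values. Of 5 Müller glia genes, 0 were called higher and 4 lower, beside 6.56% and 6.12% of all genes, with a median log2 ratio of -2.19, and on the TPM scale 1 was called higher and 3 lower. *Glul*, which encodes glutamine synthetase, had 754 FPKM in CTRL and 126 FPKM in IR12. *Aqp4*, the water channel of glial endfeet, had 48.0 FPKM in CTRL and 4.16 FPKM in IR12. *Vim*, which encodes the intermediate filament vimentin, had 121 FPKM in CTRL and 221 FPKM in IR12 and was not called. Of 8 rod and cone genes, 0 were called higher and 1 lower, and 2 were called lower after median centring and with equal sums without small RNAs. The gene called lower as deposited was *Opn1sw*, with 6.68 FPKM in CTRL and 2.66 FPKM in IR12, which on the TPM scale was at -0.57 and not called, where 1 gene of the list was called higher. Of 5 retinal ganglion cell genes, 4 had at least 1 FPKM and 0 were called, and *Nefl*, the most abundant, had 132 FPKM in CTRL and 88.8 FPKM in IR12. Of 3 measured endothelial genes, 0 were called, and *Kdr*, the most abundant, had 108 FPKM in CTRL and 66.8 FPKM in IR12.

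Of 4 measured genes of blood, lens and pigment epithelium, 0 were called higher and 3 lower, and on the TPM scale 1 was called higher and 2 lower. The lens crystallin gene *Cryaa* had 1118 FPKM in CTRL and 124 FPKM in IR12, and *Hbb*, a haemoglobin gene, had 20.4 FPKM in CTRL and 35.1 FPKM in IR12. Of 8 reference genes, 2 were called higher and 0 lower. These were *Actb*, with 259.9 FPKM in CTRL and 537 FPKM in IR12, and *B2m*, with 65.7 FPKM in CTRL and 188 FPKM in IR12. The call on *Actb* was lost with equal sums without small RNAs, at 0.94. *Gapdh* had 716 FPKM in CTRL and 690.1 FPKM in IR12, and *Hprt1* was listed at 0 in both.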
